A study of Mus musculus with 12 samples.

Results

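The iron-handling genes described here are 8 named genes of the 55401 listed in the count tables: the ferritin subunits Fth1 and Ftl1, the importers Tfrc and Slc11a2, the exporter Slc40a1, the iron regulatory proteins Aco1 and Ireb2, and the haem oxygenase Hmox1. They were chosen by name and matched through their Ensembl identifiers, and all 8 were found. The hearts came from adult mice, either WT or lacking Rpl3l (Rpl3l-/-, called KO), and were measured in 2 fractions, with 3 libraries in each of the 4 groups. Input libraries hold total heart RNA. IP libraries hold RNA that came down with HA-tagged ribosomes, from hearts that had been given cycloheximide, a drug that stalls ribosomes on their mRNA. Both fractions were enriched for poly(A) RNA and read as nanopore cDNA. RNA was extracted with TRIzol for Input and on columns for IP, so extraction, drug and fraction change together and cannot be told apart. The labels give no age beyond adult, and do not say which cells carry the tag, how the KO allele was made or whether an Input and an IP library come from the same heart. Whether replicates come from separate animals is likewise not stated, so p-values measure the spread between these libraries, which may be technical.

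Cells keep their free iron within narrow limits by acting on mRNAs. Iron regulatory proteins, made by Aco1 and Ireb2, bind a small hairpin called the iron-response element when iron is scarce. A hairpin in the 5′ untranslated region, as in both ferritin mRNAs and in the ferroportin mRNA Slc40a1, then blocks the start of translation, while hairpins in the 3′ untranslated region, as in the transferrin receptor mRNA Tfrc, protect the mRNA from decay. In heart muscle ferritin stores iron in a harmless form, and the transferrin receptor is a main route of iron into the cell. Aco1 is a special case, since its protein is a cytosolic aconitase when it carries an iron-sulfur cluster.

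The hairpins are shown because the control described above acts through them on several of these mRNAs. They were searched for in GENCODE M21 transcripts (build GRCm38), on the transcript strand only, as an unpaired C, 5 stem bases, the 6-base loop CAGTGN and 5 bases pairing back, with at most 1 of the 5 pairs unpaired and G with T counted as a pair. Each run below is 30 bases, 5′ to 3′, with the loop in capitals.
Fth1, 5′ untranslated region, chr19:9982732-9982761, plus strand: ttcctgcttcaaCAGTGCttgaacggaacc
Ftl1, 5′ untranslated region, chr7:45459778-45459807, minus strand: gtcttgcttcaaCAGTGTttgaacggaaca
Slc40a1, 5′ untranslated region, chr1:45925464-45925493, minus strand: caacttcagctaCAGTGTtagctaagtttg
Tfrc, 3′ untranslated region, chr16:32631219-32631248, plus strand: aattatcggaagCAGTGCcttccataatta
Tfrc, 3′ untranslated region, chr16:32631598-32631627, plus strand: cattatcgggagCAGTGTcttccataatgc
Tfrc, 3′ untranslated region, chr16:32631663-32631692, plus strand: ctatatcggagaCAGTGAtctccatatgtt
Tfrc, 3′ untranslated region, chr16:32631710-32631739, plus strand: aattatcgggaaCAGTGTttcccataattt
Slc11a2, 3′ untranslated region, chr15:100395152-100395181, minus strand: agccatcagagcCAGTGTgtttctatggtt
The stem was fully paired in every one of these except that of Slc11a2, where 1 pair of 5 was unpaired. The matches lay in 4 of 5 coding transcripts of Fth1, 1 of 2 of Ftl1, 1 of 4 of Slc40a1, 1 of 3 of Tfrc and 1 of 6 of Slc11a2. No match of this form was found in Ireb2, Aco1 or Hmox1. Over 21901 protein-coding genes the same search matched 0.95% in the 5′ untranslated region and 3.986% in the 3′ untranslated region, and 31 and 129 genes had a fully paired stem there. A match is a description of the letters and no proof of a working element.

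Library totals ran from 169359 to 710868 counts, and levels are given as counts per 1000000 counts (CPM), scaled by TMM factors, which set the libraries to a common level. On this scale 3 counts in a library stood for 3.92 to 17.05 CPM. Rpl3l was measured at 270 ± 43.9 CPM (SD, n = 3) in WT Input, 48.9 ± 20.9 in KO Input, 272 ± 2.75 in WT IP and 4.42 ± 3.37 in KO IP. Of 16 cardiomyocyte markers 1, Actc1, was listed at 0 in all 12 libraries, and the sum of the other 15 was 83608 to 101277 CPM. Globin mRNAs took 17.2% of the counts in WT IP library 2 and 13.8% in WT Input library 3, against 1.70% to 6.97% in the other 10 libraries. Of the 8 iron genes 7 passed the count filter and were tested among 6596 genes with edgeR's quasi-likelihood test and Benjamini-Hochberg adjustment. Hmox1 did not pass it.

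Fth1 and Ftl1 encode the heavy and light subunits of ferritin, the shell that stores iron. Both mRNAs were much lower on tagged ribosomes than in total RNA, in WT and in KO hearts, and neither was called between the genotypes. Transferrin receptor mRNA moved the other way in WT and was higher in IP. In the WT comparison 1 of the 7 tested iron genes was called higher and 2 lower, where 14% of all tested genes were called. In the KO comparison 0 were called higher and 2 lower, where 16.4% of all genes were called. The median log2 fold change of the 7 was -0.18 in WT and -0.76 in KO, against 0.02 and 0.01 over all tested genes.

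**Figure D1:**
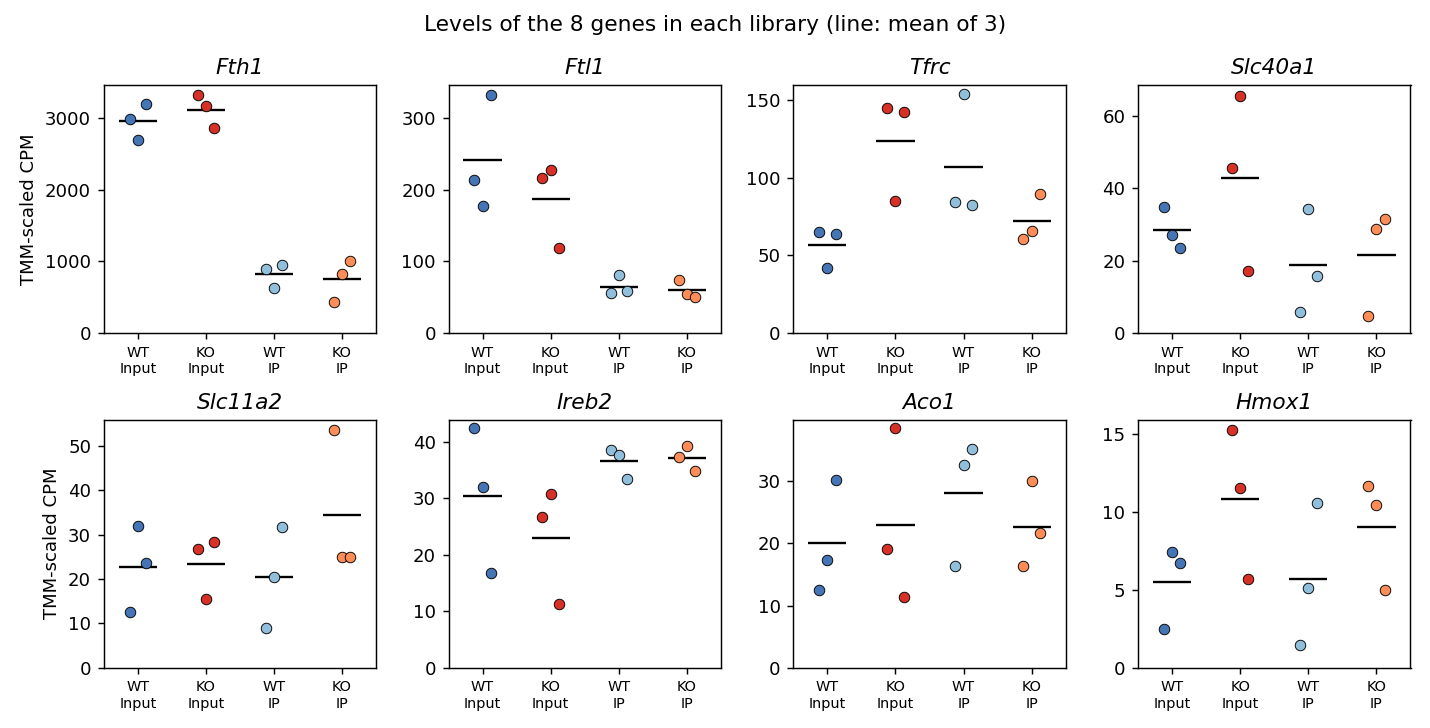
Levels of the 8 genes in TMM-scaled CPM on a linear axis from 0, 1 point per library and a line at the mean of the 3 libraries of each group. The IP points of Fth1 and Ftl1 lie below all Input points, and the KO Input points of Tfrc lie above all WT Input points.

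Fth1 was the most abundant of the 8, with a mean of 2964 CPM in WT Input against 241 for Ftl1 and 56.8 for Tfrc. In WT Input its 3 libraries read 2994, 2698 and 3201 CPM, and in WT IP 896, 627 and 954 CPM. In KO Input they read 3321, 3174 and 2864 CPM, and in KO IP 439, 827 and 1007 CPM. Every IP library was below every Input library in both genotypes, and KO IP library 1 was the lowest of all. Groups that do not overlap were common in these comparisons, at 34.6% of tested genes in WT and 30.8% in KO. In WT the level was 2964 ± 253 CPM in Input and 826 ± 174 in IP (SD, n = 3), a log2 fold change of -1.84 (SE 0.22, edgeR adjusted p = 1.12e-06) or 3.59-fold lower in IP. In KO hearts it was 3120 ± 233 CPM in Input and 758 ± 291 in IP, a log2 fold change of -2.04 (SE 0.22, edgeR adjusted p = 3.88e-07) or 4.1-fold lower.

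Ftl1 sat at about the same position. In WT Input it read 214, 178 and 333 CPM, and in WT IP 56.3, 80.5 and 58.1 CPM. In KO Input it read 217, 227 and 119 CPM, and in KO IP 74.7, 54.9 and 49.9 CPM. The IP libraries again lay below all Input libraries of their genotype. The highest Input and the highest IP value belonged to the libraries with the most globin mRNA, WT Input 3 and WT IP 2, whose part in the levels was not tested. The log2 fold change was -1.88 in WT (SE 0.25, edgeR adjusted p = 8.37e-06) and -1.71 in KO (SE 0.27, edgeR adjusted p = 9.17e-05).

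**Figure D2:**
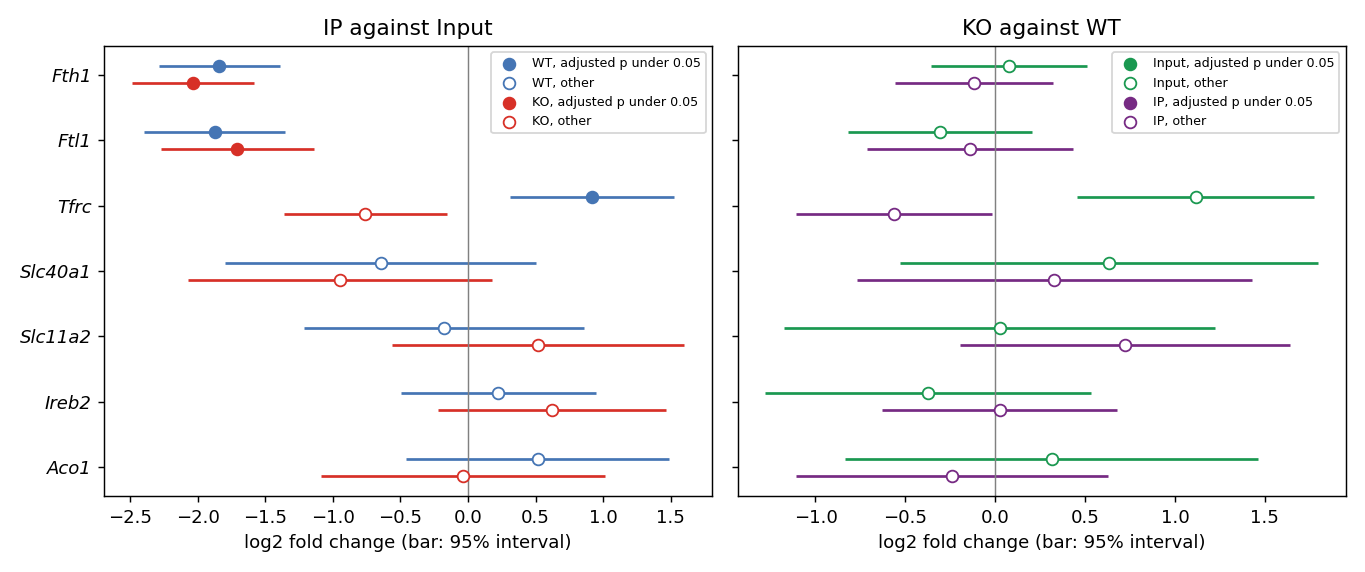
Log2 fold changes of the 7 tested genes with their 95% intervals (edgeR), IP against Input on the left and KO against WT on the right, with filled points at adjusted p under 0.05. The ferritin genes lie near -2 in IP against Input in both genotypes, and no point is filled on the right.

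Between genotypes the ferritin mRNAs did not pass the test in either fraction. KO against WT, the log2 difference of Fth1 was 0.08 in Input (95% interval -0.36 to 0.51) and -0.12 in IP (-0.56 to 0.32). For Ftl1 it was -0.31 in Input (-0.82 to 0.20) and -0.14 in IP (-0.72 to 0.43). The genotype change of the IP to Input ratio was -0.19 for Fth1 (SE 0.30) and 0.17 for Ftl1 (SE 0.38), with edgeR adjusted p of 0.938 and 0.960.

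The 2 subunits are assembled together, so their counts were also set against each other within each library, a ratio that does not depend on library scaling. The mean ratio of Fth1 to Ftl1 counts was 12.9 ± 2.93 in WT Input, 17.8 ± 5.45 in KO Input, 13.4 ± 4.85 in WT IP and 13.7 ± 7.26 in KO IP (SD, n = 3). On the log2 scale the IP minus Input difference was -0.0015 in WT (two-sided exact permutation p = 1.0) and -0.51 in KO (exact permutation p = 0.5). The KO minus WT difference was 0.44 in Input (exact permutation p = 0.2) and -0.06 in IP (exact permutation p = 0.8). With 3 libraries against 3 the smallest p this test allows is 0.10, and the groups overlapped in all 4 comparisons.

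The light chain has a near-identical copy in the mouse genome, and many reads were counted there. Ftl1-ps1 (chr13:74399694-74407346, plus strand) is annotated as protein-coding and matched the longest Ftl1 transcript at 99.56% of 910 aligned bases. It carries the same 30 bases around the loop as Ftl1, at chr13:74406428-74406457, plus strand.
Ftl1-ps1: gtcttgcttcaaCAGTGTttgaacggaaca
Of 1457 light-chain counts in all libraries 616 lay on Ftl1, 716 on Ftl1-ps1 and the rest on 4 other copies, out of 19 annotated copies with at least 80% identity over 300 bases. For Fth1 the copies held 5 counts against 8387 on the gene itself. The sources used here do not give the rule by which reads were shared between such copies, so the level of Ftl1 alone is uncertain. Reads of Ftl1 and its copies cannot be told apart from gene counts.

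**Figure D3:**
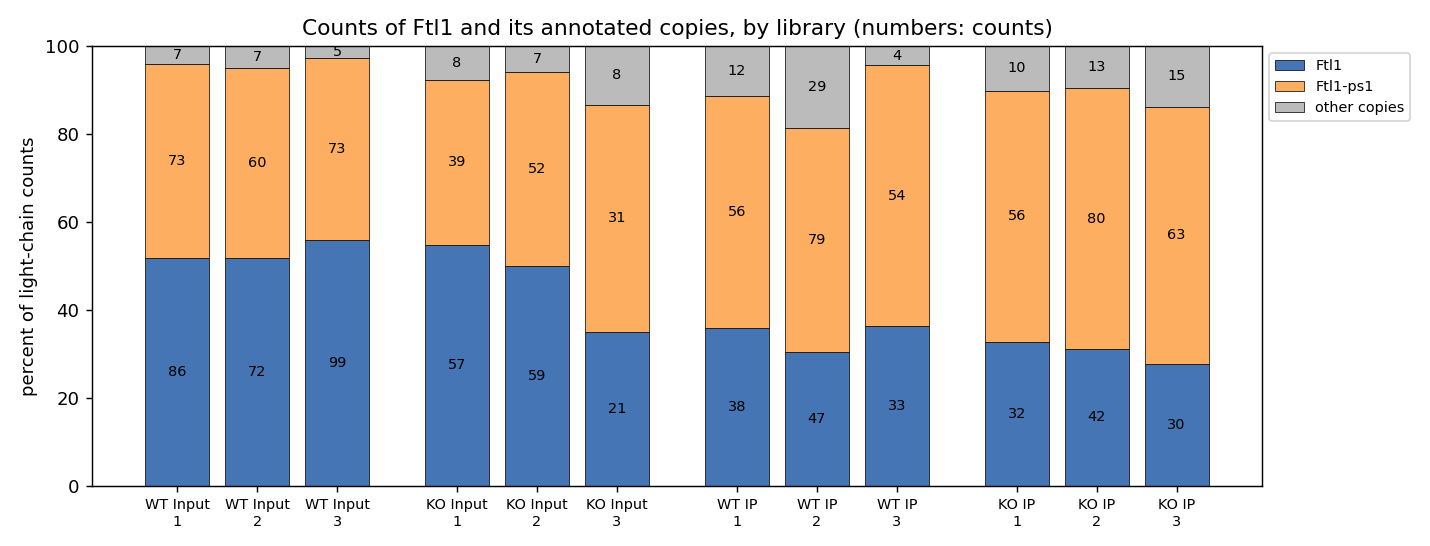
Percent of light-chain counts on Ftl1, on Ftl1-ps1 and on the other copies in each of the 12 libraries, with the counts written in the bars. The Ftl1 share is lower in each IP group than in the Input group of the same genotype.

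The light-chain reads were not split alike in the 2 fractions, a pattern chosen after its values were seen. Of the reads on Ftl1 and Ftl1-ps1 together, Ftl1 held 55.5% in WT Input (exact 95% interval 50.8% to 60.1%, which covers counting error only), 52.9% in KO Input (46.6% to 59.1%), 38.4% in WT IP (33.0% to 44.1%) and 34.3% in KO IP (29.0% to 39.97%). IP and Input libraries did not overlap in either genotype, and each difference had a two-sided exact permutation p = 0.1, the smallest it can reach. Between genotypes the shares did not overlap in IP either (mean 34.3% in KO and 38.6% in WT, exact permutation p = 0.1), and overlapped in Input (exact permutation p = 0.7). Ftl1-ps1 alone was lower in IP by less than Ftl1, with a log2 fold change of -0.86 in WT (SE 0.22, edgeR adjusted p = 0.00852) and -0.64 in KO (SE 0.23, edgeR adjusted p = 0.0635). With all copies added together the light chain was still lower in IP, at -1.21 in WT (SE 0.21, edgeR adjusted p = 0.000306) and -1.05 in KO (SE 0.22, edgeR adjusted p = 0.00183). The heavy-to-light ratio then fell from Input to IP by 0.64 on the log2 scale in WT (exact permutation p = 0.3) and by 1.09 in KO (exact permutation p = 0.1, groups not overlapping).

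Short mRNAs as a class were lower in IP. Among 535 tested genes whose longest transcript has up to 1000 bases, the median log2 IP to Input change was -0.49 in WT and -0.56 in KO. Among 999 genes above 6000 bases it was 0.23 in WT and 0.36 in KO. Fth1 (1494 bases) and Ftl1 (968 bases) are short, and both lay below the lower quartile of their class, which was -0.61 in WT for 1001 to 2000 bases and -0.98 in WT for the shortest class. With the trend on length removed Fth1 was at -1.62 in WT and -1.80 in KO, and Ftl1 at -1.44 and -1.22, and all 4 stayed past the edgeR threshold. Ftl1-ps1 moved to -0.42 in WT with the trend removed (edgeR adjusted p = 0.205).

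**Figure D4:**
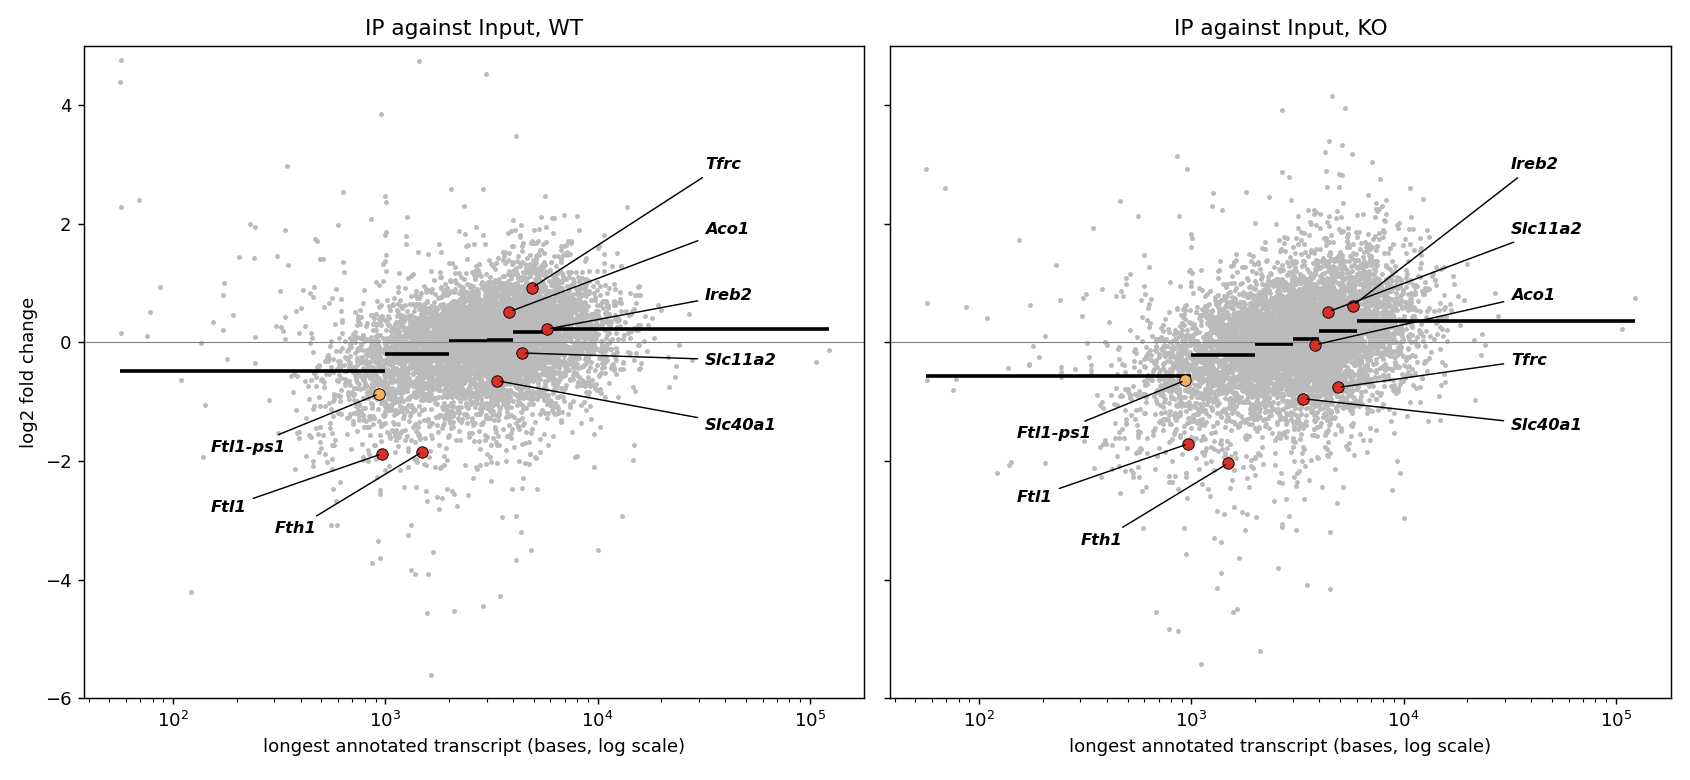
Log2 IP to Input fold change of each tested gene against the length of its longest transcript (log axis), WT on the left and KO on the right, with the iron genes in red, Ftl1-ps1 in orange and black lines at the median of each length class. The vertical axis runs from -6 to 5 and leaves out 8 genes in WT and 7 in KO; Fth1 and Ftl1 lie well below the median of genes of their length.

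Among tested protein-coding genes with a name of their own, those most like Fth1 over the 12 libraries were Rpl36 (r = 0.980), Tpt1 (0.978) and Chpt1 (0.977). The measure was the Pearson correlation of log2 CPM. Rpl36 and Tpt1 are translation-related mRNAs, a ribosomal protein and the translationally controlled tumour protein, and Chpt1 makes phosphatidylcholine. For Ftl1 they were Rpl41 (0.971), Eef1a1 (0.971) and Cox8a (0.968), a ribosomal protein, the elongation factor that brings tRNA to the ribosome and a cytochrome oxidase subunit. These values describe 12 points that share library depth and, above all, the step between fractions. After the group means were taken out, r for these 6 genes was 0.754 to 0.816.

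Tfrc encodes the transferrin receptor, which takes up iron-loaded transferrin from blood. In WT Input its libraries read 64.8, 41.9 and 63.8 CPM, and in KO Input 145, 84.7 and 142 CPM. In WT IP they read 84.4, 154 and 82.8 CPM, and in KO IP 60.7, 65.4 and 89.8 CPM. All KO Input libraries were above all WT Input libraries, and all WT IP libraries were above all WT Input libraries. In IP the WT and KO libraries overlapped, and the highest, WT IP 2, was also the one richest in globin mRNA. The next richest, WT Input 3, read 63.8 CPM against 64.8 in WT Input 1. The part of globin in the Tfrc levels was not tested. The counts behind these levels were 17 to 38 in Input and 26 to 90 in IP libraries.

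In WT hearts Tfrc was higher in IP than in Input by 0.92 on the log2 scale (SE 0.29, edgeR adjusted p = 0.0368), from 56.8 ± 12.9 to 107 ± 40.8 CPM (SD, n = 3). This call was not stable. Without WT IP library 2 the difference was 0.57 (edgeR adjusted p = 0.249) and without WT Input library 2 it was 0.72 (0.176), and leaving out WT Input library 1 or 3 gave adjusted p of 0.0694 and 0.0659. With the length trend removed it was 0.74 (edgeR adjusted p = 0.0977). In KO hearts the difference was -0.76 (SE 0.29, edgeR adjusted p = 0.0797), from 124 ± 33.9 CPM in Input to 71.9 ± 15.6 in IP, which did not pass the test. It passed with the length trend removed, at -0.96 (edgeR adjusted p = 0.0285), and without KO Input library 2, at -0.98 (edgeR adjusted p = 0.0464).

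Between genotypes Tfrc differed in Input by 1.12 on the log2 scale, KO above WT (95% interval 0.46 to 1.78). Its unadjusted p was 0.00182, the 42nd smallest of 6596, and its edgeR adjusted p was 0.286, so it did not pass. In IP the difference had the other sign, at -0.56 (95% interval -1.11 to -0.01, edgeR adjusted p = 0.943). The genotype change of its IP to Input ratio was -1.68 (SE 0.42, unadjusted p = 0.000451, the 12th smallest), with an edgeR adjusted p of 0.247. Without a count filter the adjusted p of that change was 0.0166. No iron gene was called between genotypes in Input, in IP or for the change of the ratio, where 0.182%, 0.091% and 0.091% of tested genes were called, and DESeq2 and limma-voom also called 0. Before adjustment, p was under 0.05 for Tfrc and for no other of the 7 in each of these comparisons, against 7.11%, 5.2% and 7.02% of all genes. Groups of KO and WT Input libraries did not overlap for 12.4% of tested genes.

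A list of other transcripts moved between the same Input groups. Of 13 tested immediate early genes, the first genes switched on by stress or growth signals, 5 were called higher in KO Input and 0 lower, and the list's sum was 510 to 658 CPM in WT Input and 1051 to 2421 in KO Input. Its part in the Tfrc difference was not tested. Of 10 tested erythroid markers 0 were called by edgeR between genotypes in Input and 0 in IP (0 and 6 at an unadjusted p under 0.05), with medians of -0.80 and -1.15. Without a count filter edgeR called 4 of 13 lower in KO Input and 7 of 13 lower in KO IP. In that fit 54 and 33 of all 16598 genes were called lower. Red cell precursors also carry Tfrc, and their part in its difference was not tested. The erythroid sum was 18512 to 166320 CPM in WT Input and 17002 to 47918 in KO Input, while Tfrc was higher in KO Input. In bulk tissue fewer cells of a type and less RNA per cell cannot be told apart.

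Ranked in the same way, the genes most like Tfrc over the 12 libraries were Trabd (r = 0.828), Gtpbp2 (0.797) and Cfdp1 (0.790). These are weaker likenesses than those of the ferritin genes and rest on few counts, so they are given as values only.

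Slc40a1 encodes ferroportin, the only known iron exporter of mammalian cells and abundant in macrophages that recycle red cells. In WT Input it read 34.9, 27.1 and 23.5 CPM, and in WT IP 5.92, 34.3 and 15.8 CPM. In KO Input it read 45.7, 65.5 and 17.05 CPM, and in KO IP 4.67, 28.8 and 31.6 CPM. The libraries of each group spread widely and overlapped in every comparison. IP against Input was -0.65 in WT (SE 0.56, edgeR adjusted p = 0.482) and -0.95 in KO (SE 0.55, edgeR adjusted p = 0.254). KO against WT was 0.63 in Input (SE 0.56) and 0.33 in IP (SE 0.53), neither past the test. With 2 to 22 counts per library the 95% intervals are wide, reaching from -1.80 to 0.51 for IP against Input in WT. Macrophage markers summed to 629 to 1038 CPM in WT Input, 784 to 1013 in KO Input, 870 to 1138 in WT IP and 862 to 1001 in KO IP, with 0 of 10 tested markers called by edgeR in any of the 4 comparisons and at most 2 at an unadjusted p under 0.05.

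Slc11a2 encodes DMT1, which carries ferrous iron across membranes, out of endosomes among others. It was at 22.7 ± 9.82 CPM in WT Input, 23.5 ± 7.06 in KO Input, 20.4 ± 11.4 in WT IP and 34.5 ± 16.6 in KO IP (SD, n = 3). Its largest difference was KO above WT in IP, at 0.72 (95% interval -0.20 to 1.64, edgeR adjusted p = 0.965). It was 0.31 without KO IP library 1, which read 53.7 CPM, 0.34 without WT IP library 1 and 1.18 without WT IP library 3. IP against Input was -0.18 in WT and 0.52 in KO, neither past the test.

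The mRNAs of the 2 iron regulatory proteins were both measured at low levels. Ireb2 was at 30.4 ± 12.9 CPM in WT Input, 22.9 ± 10.2 in KO Input, 36.5 ± 2.70 in WT IP and 37.2 ± 2.17 in KO IP (SD, n = 3). In KO all IP libraries were above all Input libraries, but the log2 fold change of 0.62 did not pass (95% interval -0.22 to 1.47, edgeR adjusted p = 0.327). Aco1 was at 19.98 ± 9.19 CPM in WT Input, 23.0 ± 14.0 in KO Input, 28.02 ± 10.2 in WT IP and 22.7 ± 6.94 in KO IP, with groups that overlapped in every comparison. The means of Slc11a2, Ireb2 and Aco1 lay between 19.98 and 37.2 CPM in all 4 groups. Their libraries overlapped in Input, while in IP those of Ireb2 lay above Slc11a2 in WT and above Aco1 in KO. Order among these genes was not tested. Only 2 to 30 counts per library stood behind each of the 3 genes.

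Hmox1 breaks haem down and frees its iron, and is switched on by oxidative stress. It was counted in every library but at only 1 to 8 counts, too few to pass the count filter. The means were 5.54 CPM in WT Input, 10.8 in KO Input, 5.73 in WT IP and 9.04 in KO IP, from 6, 8, 10 and 16 counts in all. Fitted without a count filter, KO against WT was 0.96 in Input (SE 0.95, edgeR adjusted p = 0.905) and 0.66 in IP (SE 0.78, edgeR adjusted p = 1), so no difference was detectable at this depth.

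Other mRNAs known to carry or proposed to carry the hairpin did not share the ferritin position. Of 5 listed, 4 were tested, and all 4 had a positive log2 IP to Input value in both genotypes, with a median of 0.74 in WT and 0.62 in KO. Epas1, which encodes the hypoxia factor HIF-2α, was called higher in IP in both, from 241 ± 39.5 to 371 ± 24.5 CPM in WT (log2 0.62, edgeR adjusted p = 0.0148) and from 231 ± 31.6 to 388 ± 48.5 in KO (log2 0.77, edgeR adjusted p = 0.00386). With the length trend removed its WT call was lost. The search above found no match in Epas1, nor in Cdc42bpa of the same list. The 5′ matches of Fth1, Ftl1 and Slc40a1 went with log2 values in WT of -1.84, -1.88 and -0.65. Alas2, the erythroid enzyme that starts haem synthesis, also had a fully paired 5′ match. Its log2 values had the other sign, at 0.86 in WT and 0.55 in KO, neither past the test. It read 124 ± 108 CPM in WT Input and 216 ± 226 in WT IP, a spread as large as its mean.

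Across the transcriptome, 17 of the 31 genes with a fully paired 5′ match were tested, a list that includes Fth1, Ftl1 and Ftl1-ps1 and was drawn up after the other results. In IP against Input 0 were called higher and 7 lower in WT, and 0 higher and 5 lower in KO, where 8.67% and 9.78% of all tested genes were called lower, and the median was -0.55 in both. Besides the 3 ferritin genes the WT calls were Egfl7 (-1.97), a protein secreted by endothelial cells, Ppia (-1.61), the folding enzyme cyclophilin A, Atrx (-1.43), a chromatin remodeller, and Vti1b (-0.83), a protein of vesicle fusion. Ftl1 and Ftl1-ps1, whose reads cannot be told apart, both count among the 7. Apart from Atrx, with 10275 bases, the longest transcripts of these 7 have 938 to 1494 bases. Of 129 genes with a fully paired 3′ match 61 were tested, a list that includes Tfrc and Bola3. In WT 7 were called higher and 2 lower, with a median of 0.19. Tfrc, whose call was not stable, counts among the 7 and Bola3 among the 2. In KO 11 were called higher and 4 lower, with a median of 0.21. Of all tested genes 5.37% and 6.64% were called higher in WT and KO. The 3′ genes called higher in WT have longest transcripts of 4842 to 26901 bases. Short mRNAs were lower and long ones higher in IP as a class, and the part of length in these lists was not tested. Between genotypes 0 of these 17 and 0 of these 61 were called in Input or in IP.

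The wider iron pathway was described from hand-written lists, with the share of all tested genes called higher or lower at 5.37% and 8.67% in WT and 6.64% and 9.78% in KO. Of 14 tested genes of iron uptake, release and sensing, 0 were called higher and 3 lower in IP in WT. These were Pcbp2 (log2 -1.06) and Pcbp1 (-0.70), RNA-binding proteins that also hand iron to ferritin, and Trf (-1.27), which encodes transferrin. In KO 0 were called higher and 1 lower, Pcbp2 at -0.93. Pcbp2 read 313 ± 40.2 CPM in WT Input and 150 ± 8.76 in WT IP, and 323 ± 21.5 in KO Input and 169 ± 9.37 in KO IP.

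Of 28 tested genes of mitochondrial iron and iron-sulfur clusters, 1 was called higher and 3 lower in WT, and 0 higher and 4 lower in KO. Bola3, which helps to pass clusters to their target enzymes, was lower in IP in both, at -0.89 in WT (edgeR adjusted p = 0.00106) and -1.45 in KO (edgeR adjusted p = 4.77e-06). The other WT examples were Cisd3 (-1.20) and Iscu (-0.74), the latter the scaffold on which clusters are built. In KO they were Isca2 (-1.17) and Fdx1l (-1.99). The medians of the list, -0.03 in WT and -0.08 in KO, were near that of all genes, and with the length trend removed 2 genes were called in WT and 2 in KO.

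Of 15 tested genes of haem synthesis and breakdown, 2 were called higher and 0 lower in WT, namely Fech (1.01) and Alas1 (0.66), the last and the first enzyme of the haem pathway. In KO 0 were called higher and 1 lower, Ppox at -2.89, another enzyme of late haem synthesis with a mean of 34.97 CPM in KO Input and 4.29 in KO IP. Fech is also on the erythroid list, and reached 225 ± 78.1 CPM in WT IP, the group that holds the library richest in globin. Of 14 tested genes of the Nrf2 and Bach1 axis, which controls ferritin and Hmox1 transcription, 0 were called higher and 2 lower in WT and 1 higher and 1 lower in KO. Prdx1, an antioxidant enzyme, was lower in both (-0.81 and -0.52), Tkt was lower in WT (-1.62), and Sqstm1, an autophagy receptor, was higher in KO (1.06).

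**Figure D5:**
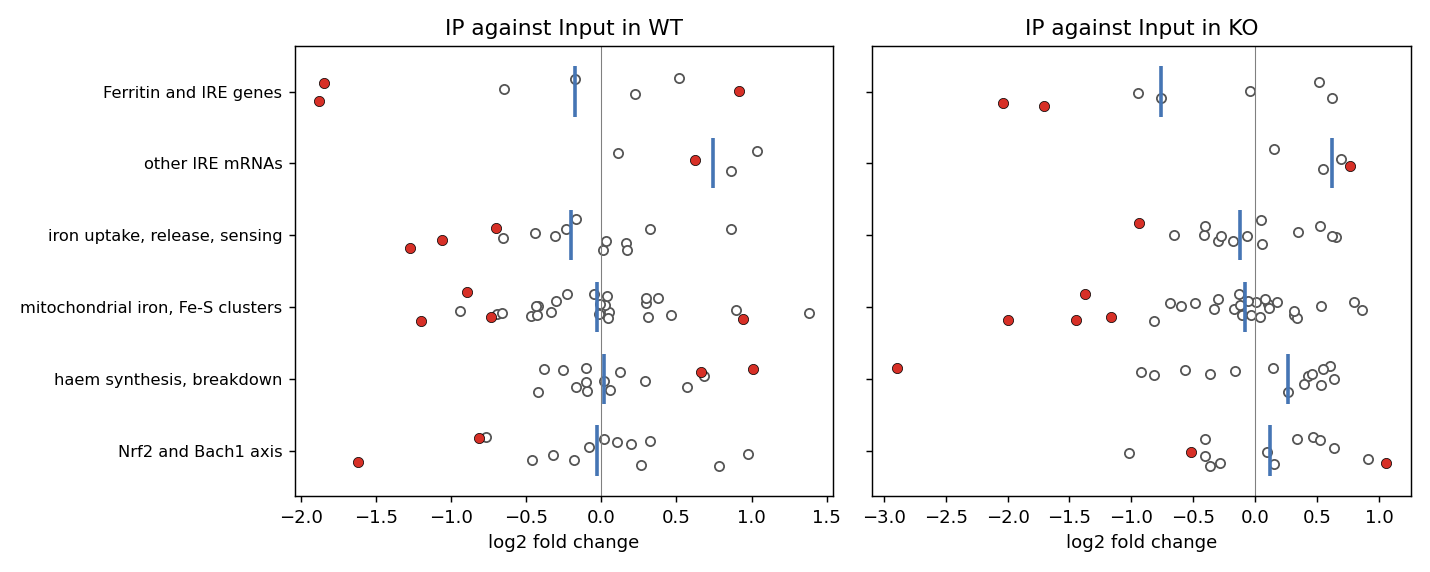
Log2 IP to Input fold change of every tested gene of the 8 iron genes and of 5 pathway lists, WT on the left and KO on the right, with red points at adjusted p under 0.05 and a blue line at the list's median. The points are spread vertically only to keep them apart; Fth1 and Ftl1 are the 2 red points near -2 in the top line of each panel.

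Between genotypes 0 genes of these 5 lists were called in Input, in IP or for the change of the IP to Input ratio by edgeR, DESeq2 or limma-voom. Of the 75 tested genes 3, 6 and 4 had an unadjusted edgeR p under 0.05 there, against 7.11%, 5.2% and 7.02% of all tested genes. Fitted by edgeR without a count filter, 1 of the 5 other hairpin mRNAs was called lower in KO than in WT in IP, against 33 of all 16598 genes. The gene with the smallest p in each list, in the order other hairpin mRNAs, uptake, mitochondrial iron, haem and Nrf2, was in Input Alas2 (-0.60), Trf (-0.74), Glrx5 (0.36), Abcg2 (1.09) and Sqstm1 (-0.65, edgeR adjusted p = 0.388). In the same order they were in IP Alas2 (-0.91), Pcbp4 (-0.65), Bola3 (-0.43), Hmox2 (1.15, edgeR adjusted p = 0.621) and Mafg (0.67). For the change of the ratio they were, again 1 per list, Epas1 (0.15), Trf (0.87), Bola3 (-0.55), Ppox (-2.47) and Sqstm1 (0.73). The value of Ppox rests on 68 counts over all libraries. Hmox2, the constitutive haem oxygenase, read 34.1 ± 4.06 CPM in WT IP and 77.1 ± 28.6 in KO IP.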

How the data were processed

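The authors deposited 1 table of whole-number counts per gene and library, made per the submitters' processing notes with minimap2 2.14, DESeq2 1.34.0 and GRCm38, while the sources used here do not give the counting rule. Gene names, lengths and transcript sequences were taken from GENCODE M21, which held 55141 of the 55401 identifiers. The 8 genes and the pathway lists were chosen with earlier results of these data known. The test was edgeR's quasi-likelihood test (edgeR 4.0.16, R 4.3.3) on 6596 genes kept by filterByExpr (minimum count 10, minimum total 15), with TMM factors, 1 mean per group over all 12 libraries, 5 contrasts and a threshold of 0.05 within each. The SE is the size of the log2 fold change divided by the root of F. The fit was tested on simulated data for KO against WT in Input only, with changes placed in genes averaging over 20 counts. IP against Input and changes in genes of few counts were not covered. CPM values were computed here. Ferritin copies were found by blastn, and ratios within libraries were compared by exact permutation. Text names the 8 genes, and up to 3 called genes per list and contrast or else that with the smallest p. Correlations were ranked among protein-coding genes only. Gm and Rik models and names holding -ps, such as Ftl1-ps1, were left out. The 3 most correlated genes of Fth1, Ftl1 and Tfrc are also named. Those of Slc40a1, Slc11a2, Ireb2 and Aco1, also at 20 CPM or more, are not named. For Ireb2 r reached 0.959, on few counts. Alternatives were scaling by DESeq2 size factors or by library totals, leaving out the count filter or asking for 30 counts in 3 libraries, DESeq2 1.42.0, limma-voom (limma 3.58.1), a replicate block, a loess trend on length (span 0.5), ferritin copies added, globin left out, only the compared libraries and each library left out. The labels do not say whether replicate numbers pair the samples, so the main test used no pairing. A gene of the list of other hairpin mRNAs is counted in that list but not reported here by name.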

Additional observations from a re-analysis of the deposited data

Results flagged for a closer look

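The change of the Tfrc IP to Input ratio between genotypes was singled out because its test of the difference gave an unadjusted p of 0.000451. The change was -1.68 on the log2 scale, and its edgeR adjusted p over 6596 genes was 0.247. IP was above Input in WT and below it in KO. Over 22 alternatives it kept its sign, between -1.90 and -1.33, with adjusted p of 0.0166 to 0.497.

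Annotated copies of Ftl1 held 841 counts that the level of Ftl1 does not include, against 616 on Ftl1 itself. Most of them, 716, lay on Ftl1-ps1.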

How the results depend on the processing

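Over 604 alternative values of the 35 log2 fold changes of the 7 tested genes, 22 kept their sign throughout. Of the 5 calls, the 4 of Fth1 and Ftl1 held in every alternative. Tfrc in IP against Input in WT lost its call in 7, which include DESeq2 (0.93, adjusted p = 0.0577) and limma-voom (0.87, adjusted p = 0.0567). Without a count filter 1 gene, Tfrc, was called for the genotype change of the IP to Input ratio. Adding the copies moved the WT IP minus Input log2 ratio of Fth1 to Ftl1 to -0.64. The 27 changes of sign were all in values that did not pass the test, and their cause was not tested. KO against WT in Input, Slc11a2 was -0.023 with no count filter. KO against WT in IP, Ireb2 was -0.019 with the length trend removed. IP against Input in KO, Aco1 was 0.12 with library totals and 0.077 with no count filter. Leaving out each library in turn gave, KO against WT in Input, -0.30 to 0.40 for Slc11a2 and -0.29 to 0.67 for Aco1. KO against WT in IP it gave -0.37 to 0.15 for Fth1, -0.30 to 0.031 for Ftl1, -0.13 to 1.09 for Slc40a1 and -0.031 to 0.07 for Ireb2. IP against Input it gave -0.63 to 0.22 for Slc11a2 and -0.029 to 0.53 for Ireb2 in WT, and -0.30 to 0.56 for Aco1 in KO. For the change of the ratio it gave -0.45 to 0.076 for Fth1, -0.11 to 0.35 for Ftl1, -0.76 to 0.47 for Slc40a1 and -0.92 to 0.045 for Aco1. With the replicate number as a block 3 iron genes were called in IP against Input in WT and 2 in KO, as without it, and Tfrc in WT had an adjusted p of 0.0498. Same-numbered libraries had correlations of deviations of -0.12 to 0.04, and own numbers correlated best in 0 of 18 comparisons. Of 25 pathway list counts 9 moved by over 1.5 times in some alternative. Mitochondrial iron in WT went from 4 calls to 8 with only the compared libraries and 2 with the length trend removed. Other hairpin mRNAs in WT went from 1 to 3 with no count filter, 2 with the block and 0 with the trend removed, and haem genes from 2 to 4 in WT with no count filter. Under library totals the all-gene median shifted by 0.12 in KO against WT in IP and 0.15 in IP against Input in KO. Depth limits Slc40a1, Slc11a2, Ireb2, Aco1 and Hmox1.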
